A study of Homo sapiens with 12 samples.

Results

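The mechanistic target of rapamycin complex 1, mTORC1, is a kinase complex that couples cell growth to nutrients, energy and stress. The 10 genes described here encode inhibitors and subunits of it: DDIT4, SESN1, SESN2, SESN3, DEPDC5, TSC1, TSC2, RPTOR, AKT1S1 and DEPTOR. They were chosen by symbol, with earlier results of these data known. They make up 10 of 26485 gene symbols counted, and all 10 had enough reads to be tested. The samples were polyA RNA from the human colon cancer line DLD1 after 1 h with TCDD (10 µM), kynurenine (10 µM), CH223191 (10 µM, shown as CH in the labels and figures) or DMSO. There were 12 libraries, 3 for each of these 4 groups. TCDD, a dioxin, and kynurenine, a tryptophan metabolite, activate AHR, a transcription factor switched on by small molecules that bind it. CH223191 blocks AHR, and DMSO is the usual solvent control. All groups share 1 cell line, and nothing in the labels says that a group's libraries were separate cultures. P-values therefore measure the spread between these libraries, which may be technical.

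As background, growth signals activate mTORC1 through the small GTPase RHEB, and amino acids bring it to the lysosome through the Rag GTPases. The TSC complex switches RHEB off, and GATOR1 switches the Rag GTPases off. DDIT4 and the sestrins are induced by stress and act through these brakes: DDIT4 through the TSC complex and sestrins through GATOR2, which restrains GATOR1. RPTOR is the scaffold subunit of mTORC1, and AKT1S1 and DEPTOR are its inhibitory subunits.

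Counted reads ranged from 21397703 to 28247146 per library (median 26666641). Levels are in CPM, read counts relative to the scaled library total. The labels were checked on AHR target genes. CYP1A1 averaged 428 CPM with TCDD, 10.15 CPM with kynurenine, 0.520 CPM with CH223191 and 3.21 CPM in DMSO. CYP1B1 averaged 646 CPM with TCDD, 97.5 CPM with kynurenine, 49.9 CPM with CH223191 and 126 CPM in DMSO, and AHRR averaged 23.4, 5.16, 2.44 and 6.25 CPM with TCDD, with kynurenine, with CH223191 and in DMSO. For all of these genes the TCDD libraries lay above those of DMSO and the CH223191 libraries below. The kynurenine libraries lay above those of DMSO for CYP1A1 but below them for CYP1B1 and AHRR. The check was therefore mixed for kynurenine. Of 10 colon epithelium markers 7 exceeded 1 CPM, and their summed level was 8352 to 8530 CPM with TCDD, 9059 to 9335 CPM with kynurenine, 8777 to 9001 CPM with CH223191 and 8592 to 9073 CPM in DMSO. Of the 8 that could be tested, edgeR called 1 higher and 2 lower with TCDD, 1 lower with CH223191, and 0 with kynurenine (4 at an unadjusted p under 0.05, 0 by DESeq2). Of all genes tested, 11.7% were called with TCDD, 32.8% with CH223191 and 0.294% with kynurenine. CDX2, an intestinal transcription factor singled out after its values were seen, averaged 162.3 CPM with TCDD, 111.9 CPM with kynurenine, 94.7 CPM with CH223191 and 122.4 CPM in DMSO, and its part in the members' values was not tested. The 8 fibroblast markers summed to 4.15 CPM at most, the 8 immune markers to 16.2 CPM and the 6 endothelial markers to 3.15 CPM in the 12 libraries, with 1 fibroblast and 1 endothelial marker at 0 throughout. Of these 22 markers of other cell types 10 could be tested, and edgeR called 0 of them in each comparison with DMSO, with 0 at an unadjusted p under 0.05 for TCDD, 0 for kynurenine and 1 for CH223191, and 0, 0 and 0 called by DESeq2.

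With CH223191 edgeR called all 4 stress-induced inhibitors higher, and DESeq2 called 3 of them, without SESN1. Of the 6 other members edgeR called DEPTOR, with a large rise, and DEPDC5, with a small rise (1.13-fold) that DESeq2 did not call. The other core complex and TSC genes moved little. DDIT4 was 5.25-fold higher with CH223191 than in DMSO, SESN2 2.97-fold, SESN3 1.36-fold and SESN1 1.2-fold. TCDD raised DDIT4 1.5-fold, and no other member passed the test. A call here is an adjusted p under 0.05 by edgeR's quasi-likelihood test, with Benjamini-Hochberg adjustment over all 13619 genes tested. Against DMSO, 6 of 10 members were called with CH223191, all higher, where 32.8% of all genes tested were called and 15.9% were called higher. With TCDD 1 of 10 was called, higher, where 11.7% of all genes were called and 5.91% were called higher. With kynurenine edgeR called 0 of 10, where 0.294% of all genes were called, with 1 member at an unadjusted p under 0.05 and 0 called by DESeq2. As the members were chosen with earlier results known, these counts only describe them. In bulk RNA, a change in the share of cells that express a gene and a change in RNA per cell cannot be told apart.

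**Figure D1:**
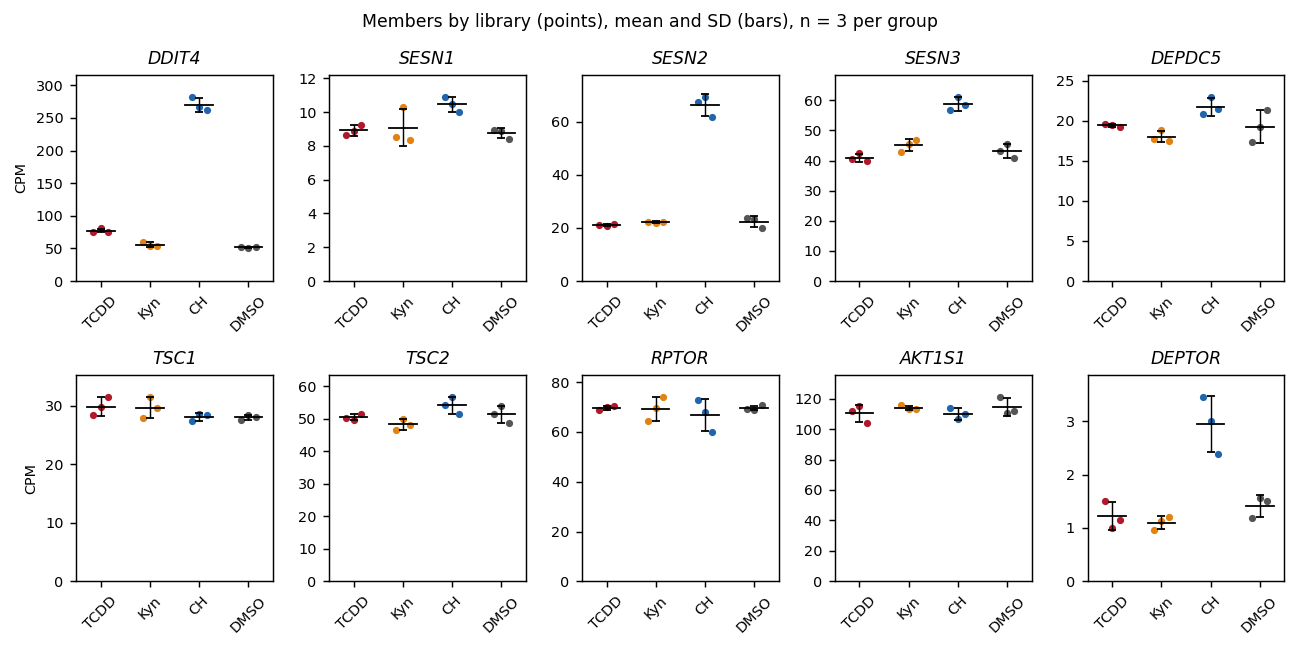
Level of each member in CPM (vertical axes, from 0) in every library (points), by group, with the mean and SD of 3 libraries (bars). DDIT4 and SESN2 in CH223191 libraries (CH) stand far above the other groups, and AKT1S1 and TSC1 overlap across groups.

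DDIT4, which frees the TSC complex to act on RHEB and is induced by hypoxia, amino acid shortage and glucocorticoids, had the clearest pattern. It had 75.8, 80.6 and 75.4 CPM in the TCDD libraries and 59.5, 53.9 and 54.3 CPM in the kynurenine libraries. In the CH223191 libraries it had 283, 267 and 262 CPM, against 52.2, 50.1 and 52.2 CPM in DMSO. The groups did not overlap, and their means rank CH223191, TCDD, kynurenine and DMSO from high to low. The log2 fold change was 2.39 ± 0.0421 (SE) for CH223191 minus DMSO (adjusted p = 6.9e-32), which had the smallest p of the 13619 genes and ranked 7 by size of rise. For TCDD minus DMSO it was 0.58 ± 0.0450 (adjusted p = 4.7e-12), the gene with rank 17 by p. For kynurenine minus DMSO it was 0.12 (95% interval 0.03 to 0.21; unadjusted p = 0.014, adjusted p = 0.55), so the small difference did not pass. The CH223191 and TCDD calls were kept in each of 20 alternative settings, with values of 2.36 to 2.42 and 0.55 to 0.64.

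DDIT4 lies on chromosome 10 at 72273919 to 72276036 (hg38, plus strand), a span of 2118 bases, the shortest of the 10 genes. SESN2 lies on chromosome 1 at 28259518 to 28282491 (plus strand). Their promoter sequences are shown because these genes carry the largest rises, and only DDIT4 rose with both TCDD and CH223191. They were taken from RefSeq (GRCh38.p14), 5′ to 3′ and ending at the base before the transcription start, with GCGTG and ACGTG in capitals. GCGTG is the core of the element bound by AHR and its partner ARNT, and ACGTG is a core bound by the hypoxia-inducible factors. Neither string is particular to those factors. DDIT4 spans chr10:72273674-72273923 and SESN2 chr1:28259268-28259517.
DDIT4: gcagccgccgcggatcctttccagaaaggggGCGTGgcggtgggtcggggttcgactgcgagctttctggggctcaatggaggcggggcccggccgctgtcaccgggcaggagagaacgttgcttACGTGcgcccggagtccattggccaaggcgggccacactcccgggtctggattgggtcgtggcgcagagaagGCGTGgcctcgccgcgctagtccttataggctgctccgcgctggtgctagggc
SESN2: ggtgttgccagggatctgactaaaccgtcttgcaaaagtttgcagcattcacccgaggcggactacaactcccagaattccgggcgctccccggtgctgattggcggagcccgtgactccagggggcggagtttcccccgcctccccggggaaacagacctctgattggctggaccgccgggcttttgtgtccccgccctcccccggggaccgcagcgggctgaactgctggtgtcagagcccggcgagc
In DDIT4, GCGTG began 219 and 53 bases before the start and 26 bases after it, and ACGTG began 125 bases before it. In SESN2 neither string occurred on either strand. RefSeq had windows, reaching just past the start, for 8 of the members (13 windows, with AKT1S1 and DEPTOR not matched). On either strand GCGTG occurred in 3 of the 13, those of DDIT4, RPTOR and 1 of SESN1, against 36.5% of all 35116 windows of the same length. GCGTG occurred 3 or more times in 4.30% of them. ACGTG occurred in 2 of the 13, DDIT4 and TSC2, and in 21.4% of all windows. TGATGNAA, which resembles the element bound by ATF4 with C/EBP proteins, occurred in 1 of the 13, that of TSC2, and in 3.62% of all windows. The search looked at letters only, on both strands, so a match is no evidence of binding, and the palindrome CACGTG counts on each strand.

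SESN2, a leucine sensor that inhibits mTORC1 through GATOR2 and a known target of the transcription factor ATF4, followed CH223191 alone. It had 21.2, 20.7 and 21.3 CPM with TCDD and 22.3, 21.8 and 22.2 CPM with kynurenine. With CH223191 it had 67.5, 69.4 and 61.7 CPM, against 23.6, 23.5 and 19.8 CPM in DMSO. Only the CH223191 libraries stood apart from DMSO. The log2 fold change was 1.57 ± 0.0553 for CH223191 minus DMSO (adjusted p = 1.0e-22; 1.49 to 1.62 in the 20 alternatives, each called). It was -0.08 (95% interval -0.21 to 0.05; adjusted p = 0.47) for TCDD and -0.01 (-0.14 to 0.12; adjusted p = 1.00) for kynurenine.

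SESN3, a paralog known as a FOXO target in other cells, changed less. It had 40.6, 42.4 and 39.9 CPM with TCDD and 42.9, 45.7 and 47.0 CPM with kynurenine. With CH223191 it had 56.7, 61.2 and 58.6 CPM, against 43.3, 45.6 and 41.0 CPM in DMSO. The CH223191 libraries lay above all others (log2 fold change 0.44 ± 0.0478 against DMSO, adjusted p = 3.9e-09; called in each of the 20 alternatives). TCDD minus DMSO was -0.08 (adjusted p = 0.33), and with trends in GC content and transcript length removed it was -0.18 with a call (adjusted p = 0.0081). SESN3 had the lowest GC content of the members (37.1% of its longest transcript).

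SESN1, which like SESN2 acts on GATOR2, was the lowest of the 3 paralogs. It had 8.63, 8.86 and 9.25 CPM with TCDD and 8.55, 10.3 and 8.36 CPM with kynurenine. With CH223191 it had 10.9, 10.5 and 10.0 CPM, against 8.96, 8.90 and 8.41 CPM in DMSO. The CH223191 libraries did not overlap DMSO, but kynurenine replicate 2 lay within their range. The CH223191 call (log2 fold change 0.26 ± 0.0884, adjusted p = 0.022) ended with DESeq2 (0.068) and without CH223191 replicate 1 (0.090), CH223191 replicate 2 (0.051) or DMSO replicate 3 (0.078).

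DEPTOR, an inhibitory subunit shared by both mTOR complexes, was the only core member with a large change. Its levels were low, with 23 to 37 reads per TCDD library, 27 to 30 per kynurenine library, 52 to 96 per CH223191 library and 31 to 43 per DMSO library. It had 1.51, 1.00 and 1.15 CPM with TCDD and 0.962, 1.122 and 1.21 CPM with kynurenine. With CH223191 it had 3.46, 2.998 and 2.39 CPM, against 1.18, 1.56 and 1.51 CPM in DMSO. The CH223191 libraries lay above all others, 2.10-fold above DMSO (log2 fold change 1.07 ± 0.184, adjusted p = 2.2e-05). That call was kept in each of the 19 alternatives in which the gene was tested (0.94 to 1.18). For TCDD the difference was -0.21 (95% interval -0.66 to 0.24) and for kynurenine -0.37 (-0.82 to 0.08), so changes of these sizes were not detectable at this depth.

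DEPDC5, the GATOR1 subunit, had 19.6, 19.5 and 19.2 CPM with TCDD and 17.7, 18.8 and 17.5 CPM with kynurenine. With CH223191 it had 20.8, 23.0 and 21.4 CPM, against 17.3, 19.2 and 21.4 CPM in DMSO. The CH223191 and DMSO libraries overlapped. The call for CH223191 minus DMSO (0.17 ± 0.0656, adjusted p = 0.038) ended in 7 of 20 alternatives, including DESeq2 (0.10) and the fits without DMSO replicate 1 (0.27), DMSO replicate 2 (0.086), CH223191 replicate 2 (0.20) or CH223191 replicate 3 (0.059).

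The remaining core genes did not pass the test against DMSO with any compound, and their libraries overlapped those of DMSO. TSC1, the stabilising partner in the TSC complex, averaged 29.9 ± 1.58 CPM with TCDD, 29.7 ± 1.81 CPM with kynurenine, 28.1 ± 0.690 CPM with CH223191 and 28.01 ± 0.442 CPM in DMSO (SD, n = 3 each, as for the genes that follow). TSC2, its GTPase-activating subunit, averaged 50.4 ± 0.927 CPM with TCDD, 48.2 ± 1.72 CPM with kynurenine, 54.1 ± 2.61 CPM with CH223191 and 51.4 ± 2.60 CPM in DMSO. RPTOR averaged 69.6 ± 0.898 CPM with TCDD, 69.3 ± 4.87 CPM with kynurenine, 66.8 ± 6.40 CPM with CH223191 and 69.6 ± 0.955 CPM in DMSO. CH223191 replicate 3 was the lowest of the 12 libraries for RPTOR, at 59.99 CPM. AKT1S1, whose protein is released from mTORC1 when AKT phosphorylates it, averaged 110.4 ± 5.57 CPM with TCDD, 113.8 ± 1.49 CPM with kynurenine, 110.0 ± 3.86 CPM with CH223191 and 114.4 ± 5.85 CPM in DMSO. For CH223191 minus DMSO the 95% intervals were -0.11 to 0.12 for TSC1, -0.02 to 0.17 for TSC2, -0.16 to 0.05 for RPTOR and -0.14 to 0.03 for AKT1S1 (log2). Each of these 4 intervals excludes a rise of the size seen for SESN3. TSC2 overlaps PKD1 on the opposite strand, and whether reads were counted by strand is not given in the sources used here. Reads from the overlap may therefore have been set aside as ambiguous or counted for the wrong gene. PKD1 had a log2 fold change of 0.30 for CH223191 minus DMSO (adjusted p = 1.1e-04).

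**Figure D2:**
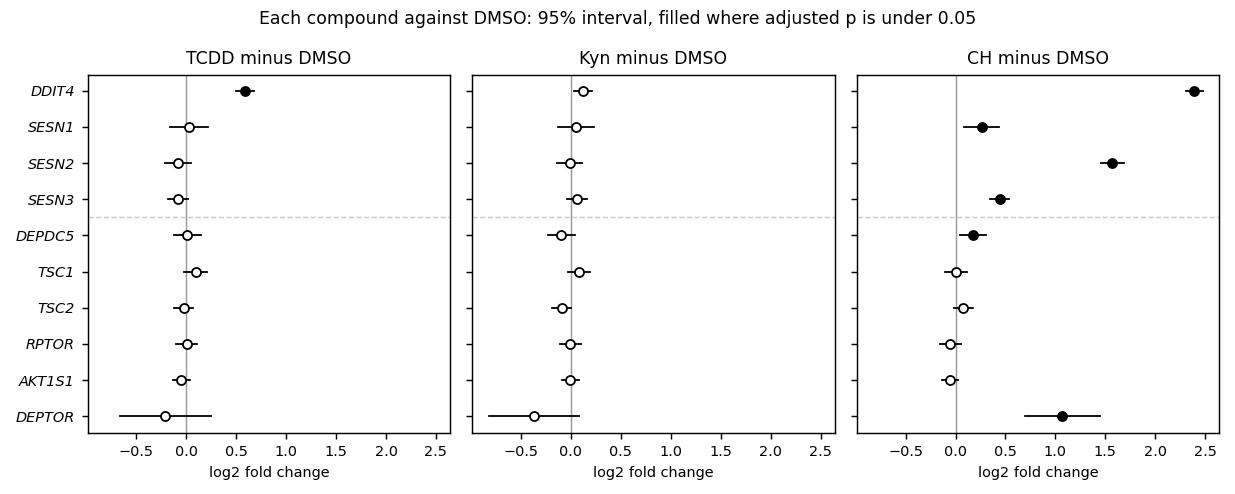
Log2 fold change of each member (horizontal axis) for each compound minus DMSO, with the 95% interval, filled where the adjusted p is under 0.05. The dashed line parts the stress-induced inhibitors (above) from GATOR1, TSC and mTORC1 genes. With CH223191 the 4 stress-induced members are filled, and below the line DEPDC5 and DEPTOR are.

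The contrast between the stress-induced inhibitors and the 6 other members was set by CH223191. The 4 stress-induced members had a median log2 fold change of 1.01 with CH223191 (0.26 to 2.39), and 4 of 4 were called higher. The 6 other members had a median of 0.04 (-0.06 to 1.07), with 2 of 6 called higher, and all genes tested had a median near 0 (9.7e-04). DESeq2 called 3 of the 4 stress-induced members and 1 of the 6 others. With TCDD the stress-induced members had a median of -0.03 and the other 6 of -0.01. With TCDD edgeR called 0 of those 6, with 0 at an unadjusted p under 0.05 and 0 by DESeq2. With kynurenine the stress-induced members had a median of 0.06 and the other 6 of -0.05. The summed CPM of the stress-induced members over that of the other 6 was 0.528 ± 0.00751 with TCDD, 0.472 ± 0.0140 with kynurenine, 1.43 ± 0.00474 with CH223191 and 0.443 ± 0.0119 in DMSO (SD, n = 3 each). DDIT4 made up 51.7 to 52.8% of the stress-induced sum with TCDD, 40.9 to 44.7% with kynurenine, 65.4 to 67.7% with CH223191 and 39.1 to 43.0% in DMSO. The sum of the other 6 stayed between 273.0 and 292.4 CPM in all 12 libraries. DEPTOR averaged only 2.95 CPM with CH223191 and 1.41 CPM in DMSO, so its rise could not show in that sum. No overlap between CH223191 and DMSO libraries was seen for 5 of 10 members, against 43.4% of all genes tested.

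A joint test over the 4 groups called 6 of 10 members, DDIT4, SESN2, SESN3, DEPTOR, DEPDC5 and TSC2, where 43.6% of all genes were called. SESN1 had an adjusted p of 0.050 in that edgeR test and was not called. For TSC1 (0.30), AKT1S1 (0.49) and RPTOR (0.74) no difference among the groups was detected.

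Levels were compared between genes per kilobase of the reference transcript (MANE Select, GENCODE 44). In DMSO the order from high to low was AKT1S1 (64.5 CPM per kilobase), DDIT4 (29.5), RPTOR (10.2), TSC2 (8.004), SESN2 (6.45), SESN3 (4.53), TSC1 (3.26), DEPDC5 (2.94), SESN1 (1.55) and DEPTOR (0.551). TSC1 and DEPDC5 overlapped there, and the other neighbours did not. With CH223191 DDIT4 came first at 155.1 CPM per kilobase, above AKT1S1 at 62.0, and SESN2 stood at 19.1, above RPTOR at 9.77. RPTOR overlapped TSC2 with CH223191, and DEPDC5 overlapped TSC1. With TCDD and kynurenine the order was that of DMSO, without overlap between neighbours. DDIT4 had 44.3 CPM per kilobase with TCDD and 32.1 with kynurenine.

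**Figure D3:**
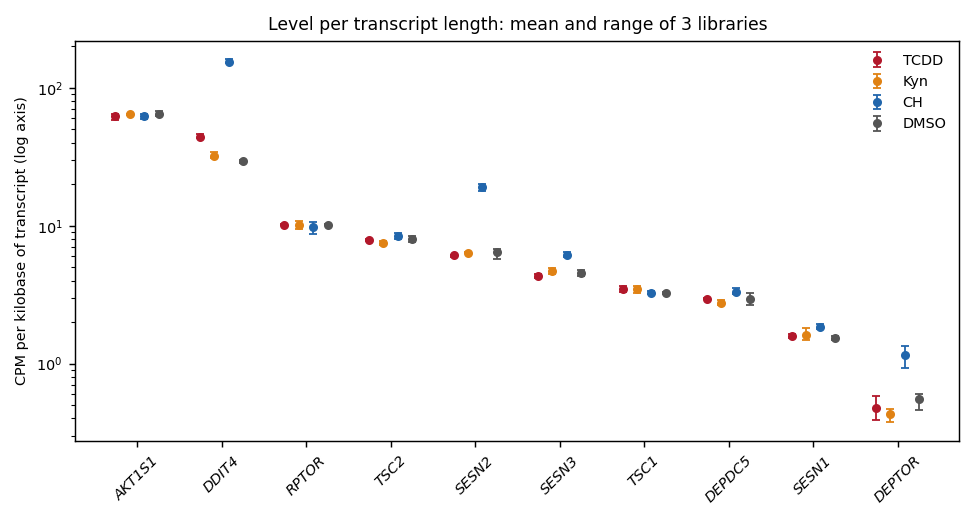
Level per transcript length of each member (vertical log axis, CPM per kilobase) in the 4 groups, as the mean with the range of 3 libraries. DDIT4 passes AKT1S1, and SESN2 passes RPTOR and TSC2, only in CH223191 libraries (CH).

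The compounds were also compared directly at 10 µM and 1 h, in 3 pairs, each adjusted over all genes. For TCDD minus CH223191 6 of 10 members were called, all lower, where 37.1% of all genes were called and 18.1% were called lower. DDIT4 differed by -1.81 ± 0.0407 (log2, adjusted p = 8.6e-29), SESN2 by -1.65 ± 0.0569 (2.7e-23), SESN3 by -0.52 (8.5e-11) and DEPTOR by -1.28 (2.4e-06). SESN1 (-0.23, adjusted p = 0.039) and DEPDC5 (-0.17, 0.0495) passed narrowly. The SESN1 call ended with DESeq2 (0.10) and without TCDD replicate 1 (0.11), TCDD replicate 2 (0.075), CH223191 replicate 1 (0.13) or CH223191 replicate 2 (0.077). The DEPDC5 call ended in 10 of 20 alternatives, including the fits without any 1 TCDD library, CH223191 replicate 2 or 3, kynurenine replicate 2 or 3 or DMSO replicate 2 (highest 0.23). TSC2 (-0.10, adjusted p = 0.081) was not called, though it was on library totals alone (0.042) and without CH223191 replicate 3 (0.036).

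For kynurenine minus CH223191 6 of 10 members were called, all lower, where 33% of all genes were called and 16.4% were called lower. DDIT4 (-2.27), SESN2 (-1.58), DEPTOR (-1.44) and SESN3 (-0.38) led, with edgeR adjusted p of 3.1e-31, 1.4e-22, 3.9e-07 and 8.0e-08. DEPDC5 (-0.27, adjusted p = 0.0016) and TSC2 (-0.17, 0.0054) were lower too, and the TSC2 call ended without CH223191 replicate 2 (0.061). PKD1, which overlaps TSC2, also differed (-0.40, adjusted p = 1.4e-06), and its part in the TSC2 value was not tested. SESN1 did not pass (-0.21, 0.068), though it did without kynurenine replicate 2 (-0.31, 0.013), on library totals alone (0.040) and with at least 5 CPM in 3 libraries (0.0497).

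Between the agonists, 1 of 10 members was called for TCDD minus kynurenine, higher, where 9.19% of all genes were called and 5.1% were called higher. That gene was DDIT4 (0.47 ± 0.0446, adjusted p = 1.0e-09), with the TCDD libraries above the kynurenine libraries. SESN2 differed by -0.07 (95% interval -0.20 to 0.06) and SESN3 by -0.14 (-0.24 to -0.04; adjusted p = 0.072). SESN3 passed without kynurenine replicate 1 (-0.18, adjusted p = 0.039) and with GC and length trends removed (-0.25, 2.1e-04).

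**Figure D4:**
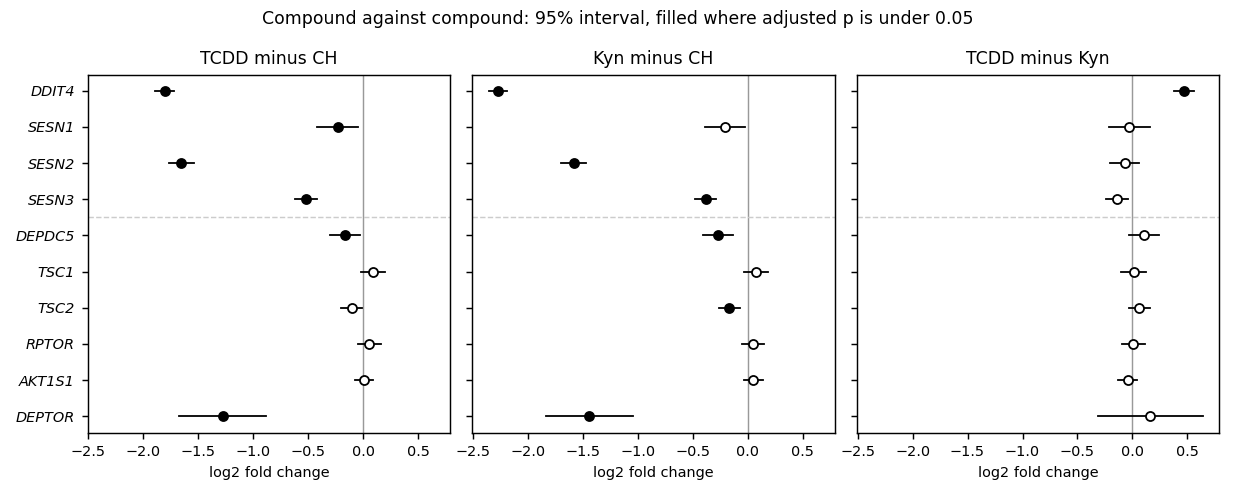
Log2 fold change of each member (horizontal axis) between compounds, with the 95% interval, filled where the adjusted p is under 0.05. Against CH223191 (CH) both agonists are lower for DDIT4, SESN2, SESN3, DEPDC5 and DEPTOR, and between the agonists DDIT4 alone is filled.

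Other genes were read from 8 lists, 6 of mTOR pathway genes and 2 of inducers of DDIT4 or sestrins and the stress genes that share them, with 98 of 106 genes tested. Over all 8 lists 35 were called higher and 13 lower with CH223191, where 32.8% of all genes were called and 15.9% were called higher. The 2 lists outside the pathway gave 6 and 6 of the higher calls. With TCDD 7 were called higher and 13 lower, where 11.7% of all genes were called and 5.91% were called higher. With kynurenine edgeR called 0 (5 at an unadjusted p under 0.05, 0 by DESeq2), where 0.294% of all genes were called. As the lists were chosen with earlier results of these data known, their counts only describe them. The median log2 fold change over the 98 was 0.05 with CH223191, -0.05 with TCDD and -0.01 with kynurenine.

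The kinase core outside the members had small changes. Of 7 genes (the kinase MTOR and its partners and helpers) CH223191 raised 3 and lowered 2, with the assembly factors TTI1 at -0.23 and TELO2 at -0.20, where 32.8% of all genes were called. DESeq2 called 3 of the 7. The call of MLST8, an mTOR subunit (0.13), ended without DMSO replicate 3, CH223191 replicate 1 or CH223191 replicate 2 (highest adjusted p = 0.098). The call of TBC1D7, a TSC complex subunit (0.20), ended in 6 of 20 alternatives, among them DESeq2 and the fits without DMSO replicate 2 or 3 or CH223191 replicate 2 or 3 (0.16). TCDD lowered 1 of 7, TELO2 (-0.18), a call that ended without TCDD replicate 3 (adjusted p = 0.057). Of 4 genes of mTORC2, the second mTOR complex, TCDD raised RICTOR, its scaffold (0.24), and lowered PRR5L (-0.44) and PRR5 (-0.25). With TCDD, 11.7% of all genes were called. The RICTOR call ended without DMSO replicate 1 or with GC and length trends removed (highest adjusted p = 0.075), the PRR5L call without TCDD replicate 1 (0.052), and the PRR5 call without DMSO replicate 1 or TCDD replicate 3 or with those trends removed (0.16). CH223191 called 0 of the 4 by edgeR (0 at an unadjusted p under 0.05, 0 by DESeq2).

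The amino acid arm moved little. Of 11 genes of GATOR1, KICSTOR and GATOR2, CH223191 raised 2 and lowered 1, the GATOR2 subunit SEH1L (-0.15). With CH223191, 32.8% of all genes were called. Of 16 tested genes of the Rag GTPases, Ragulator and amino acid sensors, CH223191 raised 3 and lowered 1, among them the lysosomal arginine sensor SLC38A9 (0.21), with the smallest p, and the Rag GTPase RRAGB (0.36), whose call ended without CH223191 replicate 1 (adjusted p = 0.069). TCDD called 0 of the 16 by edgeR (1 at an unadjusted p under 0.05, 0 by DESeq2), where 11.7% of all genes were called.

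Growth factor and energy inputs, 18 tested genes, had 6 higher and 3 lower with CH223191, where 32.8% of all genes were called. The AMPK subunit PRKAG1 (0.31), the insulin receptor substrate IRS2 (0.44) and the PI3K regulatory subunit PIK3R1 (0.24) rose, and the kinase AKT1 fell (-0.18). TCDD called 0 of the 18 by edgeR (5 at an unadjusted p under 0.05, 0 by DESeq2), where 11.7% of all genes were called.

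Among 16 substrates and effectors of mTORC1, CH223191 raised 9 and lowered 2, where 32.8% of all genes were called. GRB10, an adaptor that restrains insulin signalling, averaged 82.7 ± 3.49 CPM with CH223191 and 36.6 ± 0.763 CPM in DMSO (log2 fold change 1.18, adjusted p = 1.5e-21). EIF4EBP1, the translation repressor that mTORC1 inactivates, averaged 111.1 ± 2.56 CPM with CH223191 and 64.5 ± 4.52 CPM in DMSO (0.79, adjusted p = 1.3e-16). The autophagy kinase ULK1 (0.61) and the translation inhibitor PDCD4 (0.47) rose as well. TCDD lowered 5 of the 16 and raised 0, with GRB10 at -0.36 and PDCD4 at -0.20, where 11.7% of all genes were called. DESeq2 called 3 of these 16. The call of EIF4EBP1 (-0.15) ended in 5 of 20 alternatives (adjusted p up to 0.27), which were the removal of GC and length trends and the fits that left out replicate 1 or 3 of TCDD or of DMSO. The call of MAF1, a repressor of RNA polymerase III (-0.13), ended in 10, among them DESeq2, the replicate block and the fits that left out replicate 1 or 3 of TCDD or of DMSO, or replicate 1 or 2 of CH223191 (up to 0.34).

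**Figure D5:**
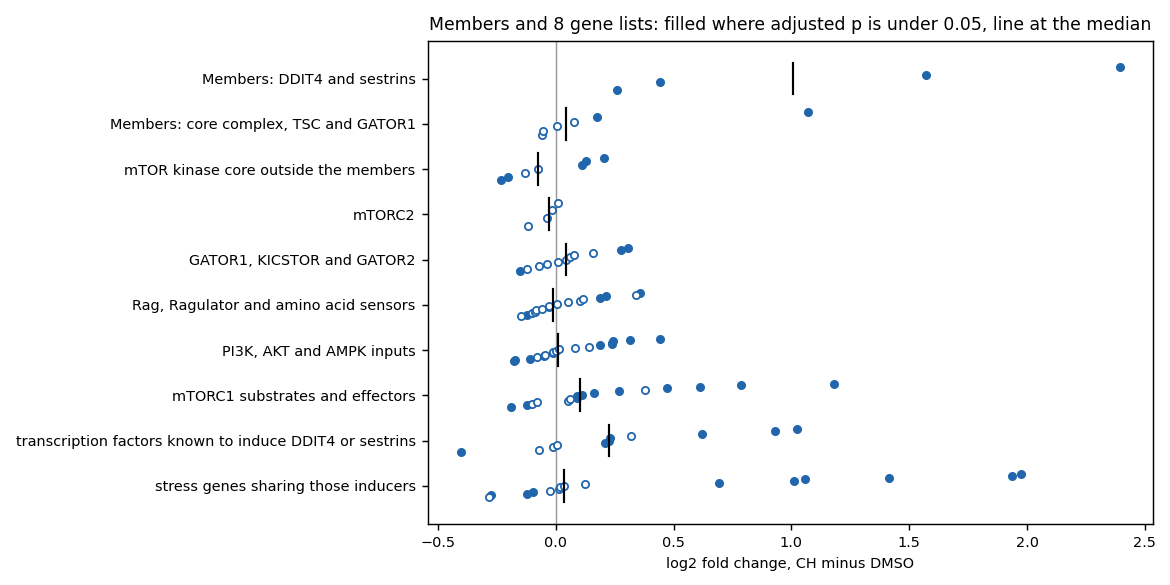
Log2 fold change for CH223191 (CH) minus DMSO (horizontal axis) of each tested gene (points) in the members and 8 gene lists, filled where the adjusted p is under 0.05, with a line at each median. The members DDIT4 and SESN2 lie at 2.39 and 1.57, and GRB10 leads the substrates at 1.18.

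Transcription factors known to induce DDIT4 or sestrins were listed too, 11 tested. CH223191 raised 6 and lowered 1, where 32.8% of all genes were called. ATF4, the main factor of the amino acid and stress response, averaged 523.1 ± 10.5 CPM with CH223191 and 274.9 ± 12.8 CPM in DMSO (log2 fold change 0.93, adjusted p = 2.2e-21). DDIT3, a stress factor induced by ATF4, averaged 11.7 ± 0.999 CPM with CH223191 and 5.79 ± 1.05 CPM in DMSO (1.02), and its partner CEBPB rose too (0.62). The transcription factor TP73 fell (-0.40). TCDD raised 2, the oxidative stress factor NFE2L2 (0.26) and the hypoxia factor HIF1A (0.19), and lowered 3 of the 11. With TCDD, 11.7% of all genes were called.

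Of 15 tested stress genes that share these inducers, CH223191 raised 6 and lowered 3, where 32.8% of all genes were called. The ATF4 targets CHAC1 (1.94), ASNS (1.41) and TRIB3 (1.01) and the growth factor VEGFA (1.06) rose. TCDD raised 3, among them the stress cytokine GDF15 (0.42) and the feedback inhibitor ERRFI1 (0.24), and lowered 2. With TCDD, 11.7% of all genes were called.

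The genes most similar in pattern were listed for DDIT4 and for SESN2. Over the 12 libraries, among 12110 other genes averaging 1 CPM or more, log2 CPM of DDIT4 had the highest Pearson r with TSC22D1 (0.992), IFRD1 (0.988), SLC7A11 (0.986), FUT3 (0.983) and ATXN1 (0.982). SESN2 had it with MTHFD2 (0.996), SLC6A9 (0.996), ATF4 (0.995), PSPH (0.995) and ASNS (0.994). DDIT4 and SESN2 themselves had an r of 0.957. These values describe libraries in which the 3 CH223191 libraries lie far from the rest, and all genes share them.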

How the data were processed

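The 12 libraries were deposited as raw read counts for each gene symbol, which the authors made with HTSeq, per the labels' protocols. The submitters' processing notes name Trim Galore, STAR 2.7.2b, SAMtools 1.9, HTSeq and hg38. The protocol text differs: it has STAR 2.5.2b as aligner, preceded by checks of the reads (NGS QC Toolkit 2.3.3) and of the libraries (Bowtie 2.3.2 on transcripts of Ensembl release 89), and describes no CH samples. The identity of CH as CH223191 and the dose come from the series' title and design. Reads outside genes (7.29 to 9.33% of aligned reads) and ambiguous reads (2.74 to 2.81%) stayed out of library totals.

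With edgeR 4.0.16 and limma 3.58.1 (R 4.3.3), filterByExpr (minimum count 10) kept 13619 genes. TMM factors were 0.988 to 1.02, and 1 quasi-likelihood fit over all groups gave every contrast. An SE is the log2 fold change divided by the square root of F. Log2 CPM used a prior count of 2. The fit was also run on simulated counts, with the same spread for every gene and changes planted in the CH223191 group alone. That run does not cover spread that differs between genes, and no result here rests on it. Pairs of libraries within a group varied 1.76 to 4.66 times as much as Poisson noise, so none was counted as a duplicate. Deviations of same-numbered libraries correlated at -0.055 to 0.037, so numbers were not taken as pairs.

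The members and lists were chosen with earlier results of these data known. Per list and comparison, at most 4 called genes of smallest p were named, and for DDIT4 and SESN2 the 5 most similar genes. PKD1 was named because it overlaps TSC2. Alternatives were RLE factors, plain totals, 2 other low-count filters (none, and at least 5 CPM in 3 libraries), DESeq2 1.42.0, a replicate block, fits of 2 groups, removal of trends in GC content and transcript length (GENCODE 44, 23161 symbols matched), and leaving out each library. Some items are not reported here.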

Additional observations from a re-analysis of the deposited data

How the results depend on the processing

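The number of members called was recomputed in 20 alternative settings for each of 6 comparisons. With GC and length trends removed it was 2 for TCDD minus DMSO and 2 for TCDD minus kynurenine, against 1 and 1, and SESN3 was the added gene both times. With each library left out in turn it was 1 to 2 for TCDD minus kynurenine, 4 to 6 for CH223191 minus DMSO (4 without CH223191 replicate 2), 4 to 6 for TCDD minus CH223191 (4 without TCDD replicate 1, TCDD replicate 2 or CH223191 replicate 2) and 5 to 7 for kynurenine minus CH223191. With the replicate block it was 1 (TCDD), 0 (kynurenine) and 6 (CH223191) against DMSO, and 6, 6 and 1 for TCDD minus CH223191, kynurenine minus CH223191 and TCDD minus kynurenine, as without it. DESeq2 called 4 of 10 members for CH223191 minus DMSO and 4 for TCDD minus CH223191, against 6 and 6. In single members 1193 values were recomputed: 1158 kept their side of the threshold, 27 lost a call, 8 gained one and 0 called values changed sign. Of 44 values of genes in the other lists, 16 lost a call in at least 1 setting. DEPTOR was not tested with at least 5 CPM in 3 libraries.

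Over all genes, the count called with TCDD was 805 to 1912 with a library left out (1599 with all), lowest without TCDD replicate 3, 851 without DMSO replicate 1 and 1020 without DMSO replicate 3. For TCDD minus kynurenine it was 576 without TCDD replicate 3 and 658 without kynurenine replicate 1, against 1252. For kynurenine it was 65 with no low-count filter and 26 on the 6 libraries compared, against 40. The cause was not tested. DEPTOR, on 23 to 96 reads, is the member whose depth limits what could be seen.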
